A study of Mus musculus with 19 samples.

Results

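The genes described here are 33 neuronal and synaptic genes, listed by symbol and matched by Ensembl identifier in gene-level RNA-seq values of 49671 genes. All 33 were found, and all 33 passed the filter on low values, a normalized count of at least 10 in at least 3 libraries, that left 23973 genes for testing. The list was chosen for what the genes do, and it starts with Thy1, the gene whose promoter drives the transgene of these mice. The material was brain homogenate enriched for microglia, the resident macrophages of the brain, so neurons were not the cells the preparation set out to collect.

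The study compared HEM mice, which carry an X-linked transgene and overexpress from it a full-length, wild-type human protein, with WT mice as controls. The transgene is driven by the Thy-1 promoter of the mouse. All mice were on the B6D2F1/J background. The older mice, aged 13 months, comprised 8 HEM and 4 WT animals, the younger ones, aged 3 months, 4 HEM and 3 WT animals, and the libraries are as many as the animals. The Thy-1 promoter is known to be active mainly in neurons of the brain, so the transgene's main site of expression and the cells enriched here differ. Replicate numbers below are those in the library titles.

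Neurons signal by fusing synaptic vesicles with the presynaptic membrane, which is done by SNARE proteins together with calcium sensors and clamps, and by reading the released transmitter with receptors held in a postsynaptic scaffold. Glutamate is the main excitatory and GABA the main inhibitory transmitter, each loaded into vesicles by its own transporters.

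The libraries held between 63.3 and 124.5 M reads assigned to genes. The 33 genes took 0.153 ± 0.093% of those reads in the 8 HEM libraries of 13 months, against 0.121 ± 0.0336% in the 4 WT libraries, and 0.211 ± 0.101% in the 4 HEM libraries of 3 months, against 0.12 ± 0.0219% in the 3 WT libraries (means ± SD). Each of 16 microglial marker genes was detected in every library, with a median level over genes of 28994 normalized counts per kilobase of exon. The median level of choroid plexus markers was 7882 per kilobase, that of neutrophil markers 6741 and of erythroid markers 5347. It was 3628 for endothelial markers, 3194 for astrocyte markers and 191 for 40 presynaptic genes outside the list. Detection alone does not measure how far microglia were enriched. At 13 months the summed microglial markers had a median of 1111260 normalized counts in HEM and 1351832 in WT. The summed choroid plexus markers had 2914555 and 5716536. At 3 months the microglial sums had medians of 1457750 and 1457987, and the choroid plexus sums 4340218 and 3773529. Among the libraries, HEM replicate 1 at 13 months and HEM replicate 3 at 3 months stood apart for the neuronal genes. The members took 0.364% and 0.362% of the reads there, more than in any other library, where the share ran from 0.0854% to 0.208%. HEM replicate 1 at 13 months was the highest of its group for 31 of the 33 members, against 20.8% of all genes tested, and HEM replicate 3 at 3 months for 31 of 33, against 31.5%. Oligodendrocyte markers summed to 317408 normalized counts in HEM replicate 1, the other 7 HEM libraries of that age reaching at most 157241, and to 267054 in HEM replicate 3 at 3 months, the other 3 reaching at most 161904. In bulk material, fewer cells of a type and less RNA per cell cannot be told apart.

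**Figure D1:**
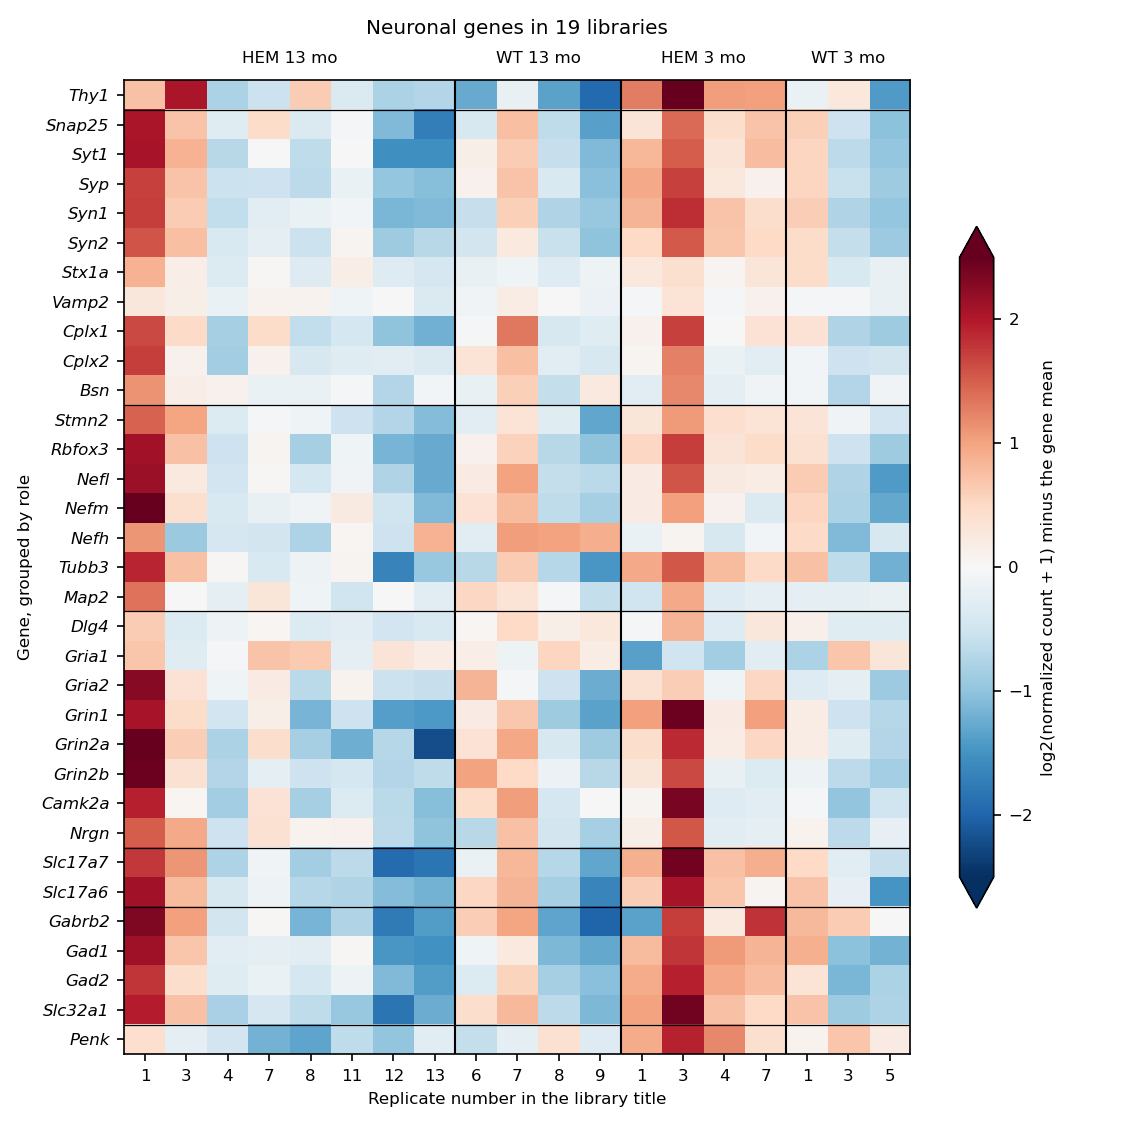
Level of each of the 33 genes (rows, grouped by role) in each of the 19 libraries (columns, by group and replicate number), as log2(normalized count + 1) minus the mean of that gene over all libraries, with the colour scale closed at 2.5 in each direction. Most rows are high in the same columns, above all HEM replicate 1 at 13 months and HEM replicate 3 at 3 months. Vamp2, Stx1a and Dlg4 vary least, with an SD over all libraries from 0.171 to 0.375. Gria1 follows another pattern. Nefh is highest in HEM replicate 1 at 13 months but is also high in most WT libraries of that age.

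The members varied among mice of the same group more than most genes did. The SD within groups had a median of 0.869 over the 33 members on the log2 scale, against 0.403 over all genes tested. Only 4 members had an SD under 0.5, namely Vamp2, Stx1a, Dlg4 and Gria1, whereas 58.1% of all genes tested did. The variation was shared. WT replicate 7 at 13 months was the highest of its group for 28 members, against 26.7% of all genes tested. WT replicate 1 at 3 months was the highest of its group for 27, against 31%. Over all 19 libraries the highest value fell in HEM replicate 1 at 13 months for 19 members. It fell in HEM replicate 3 at 3 months for 13 and in HEM replicate 7 at 13 months for 1. These last counts have no share over all genes beside them and are a description.

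The levels per length spanned a wide range. Nrgn, which encodes the postsynaptic calmodulin-binding protein neurogranin, was the highest with 6872 ± 4278 normalized counts per kilobase of exon (SD over 19 libraries), followed by Thy1 with 4314 ± 4241, Vamp2 with 3865 ± 463 and Penk with 3411 ± 2337. The spread of each of these neighbours was larger than the step to the next. Gabrb2, a GABA-A receptor subunit, was the lowest with 8.11 ± 7.42 per kilobase, below the NMDA receptor subunits Grin2a with 18.4 ± 17.9 and Grin2b with 36.7 ± 34.8.

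**Figure D2:**
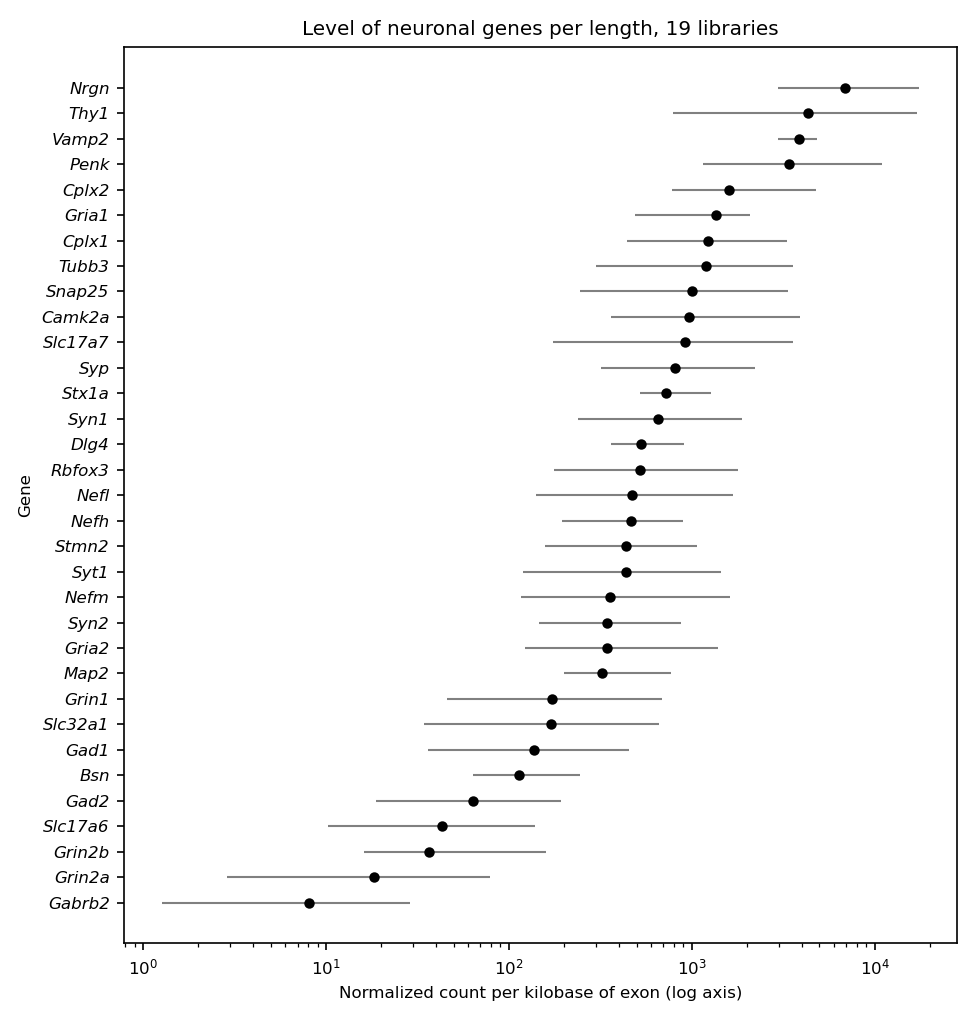
Level of each member in normalized counts per kilobase of exon on a log axis, with points for the mean over 19 libraries and lines from the lowest to the highest library. Nrgn and Thy1 lie at the top and Gabrb2 at the bottom, and the line of Vamp2, from 2976 to 4852, is among the shortest.

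Thy1 (ENSMUSG00000032011, mm10 chromosome 9, 44043384 to 44048579, plus strand) encodes a surface glycoprotein of neurons, T cells and some fibroblasts. At 13 months its normalized count ran from 5205 to 37356 in the 8 HEM libraries, with a median of 6634, and was 3768, 7909, 3578 and 2362 in the 4 WT libraries. HEM replicates 3, 1 and 8, with 37356, 14958 and 13956, lay above the rest, and the groups overlapped through WT replicate 7. The log2 difference, HEM minus WT, was 1.20 ± 0.49 (SE; limma-trend adjusted p = 0.127, Benjamini-Hochberg over all genes tested). DESeq2 on the recovered reads called it, with 1.44 and adjusted p = 0.0322.

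At 3 months Thy1 had 21865, 51369.8, 18692 and 18307 normalized counts in the 4 HEM libraries, against 8035, 10886 and 3367 in the 3 WT libraries. Every HEM library lay above every WT library, and replicate 3 was the highest. The log2 difference was 1.90 ± 0.62 (limma-trend adjusted p = 1.0), and at this age limma called 0 of all genes tested. Between the ages Thy1 differed by -1.44 ± 0.49 in HEM, 13 minus 3 months, with limma-trend adjusted p = 0.144, or -1.73 and 0.0287 without HEM replicate 3 of 13 months. In WT the difference between ages was -0.74 ± 0.62 (limma-trend adjusted p = 0.619), and the difference between the genotype effects at the 2 ages was -0.70 ± 0.79 (limma-trend adjusted p = 0.753).

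Set against the mean log2 level of the other 32 members in the same library, Thy1 was 2.41 ± 0.85 log2 units higher in the 8 HEM libraries of 13 months, against 1.23 ± 0.24 in the 4 WT libraries (means ± SD). The distance was 3.16 ± 0.16 in the 4 HEM libraries of 3 months, against 2.10 ± 0.79 in the 3 WT libraries. At 13 months 7 of the 8 HEM libraries, from 1.76 to 3.89, lay above the 4 WT libraries, which ran from 0.97 to 1.49, and HEM replicate 1 with 1.31 lay among them. At 3 months the HEM libraries ran from 2.97 to 3.34, and WT replicates 1 and 5 had 1.80 and 1.5 while WT replicate 3 had 3.0. With the mean level of 189 other neuron genes as a term in the model, the difference in Thy1 between HEM and WT was 1.15 at 13 months (limma-trend adjusted p = 0.0546) and 1.28 at 3 months (adjusted p = 1.0).

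**Figure D3:**
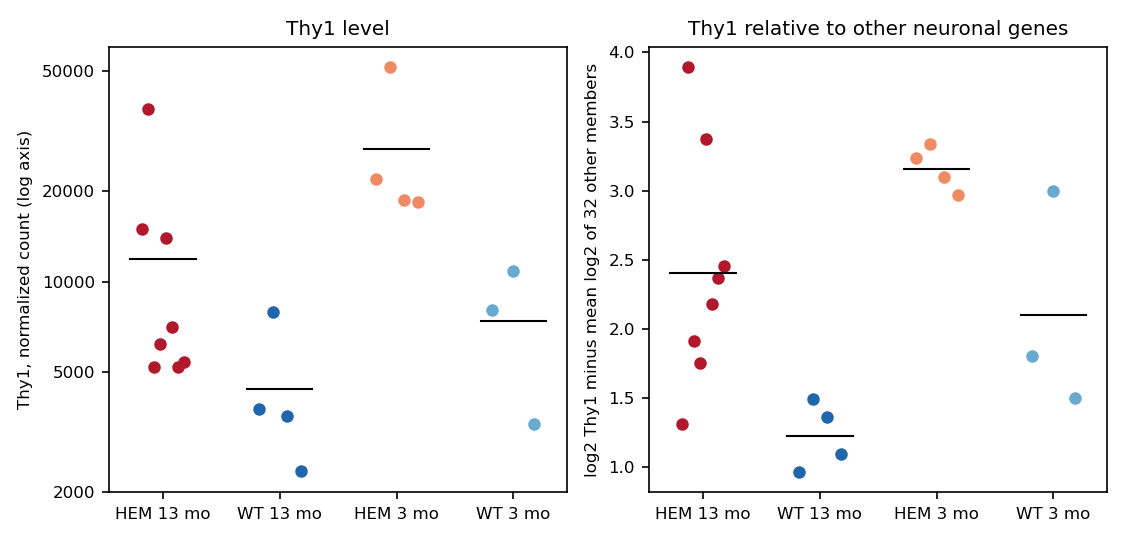
Left, normalized count of Thy1 in each library on a log axis, by group, with a line at the arithmetic mean. Right, log2 level of Thy1 minus the mean log2 level of the other 32 members in the same library, with a line at the mean. The 4 HEM libraries at 3 months lie above the WT libraries on the left, and on the right 7 of 8 HEM libraries at 13 months lie above all 4 WT libraries.

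Thy1 is known from other cells too, and their markers were measured beside it. At 13 months 5 of 17 T cell markers were called higher in HEM (background 4.87% of all genes tested) and 0 were called lower (background 7.3%). All 17 were higher by sign, each at an unadjusted limma-trend p under 0.05 (background 11.6%). The smallest p was that of Cd247, a chain of the T cell receptor complex. Their median log2 difference was 1.16. Their summed level ran from 14239 to 58261 normalized counts in HEM and from 7784 to 21613 in WT. At 3 months 0 of 17 passed the test, with a median of 0.54 and sums from 14407 to 34145 in HEM and from 8865 to 18790 in WT. Of 12 fibroblast markers 1, Igf2, was called lower in HEM at 13 months. This is 8.33% of the list, near the background of 7.3%, so nothing is read from it. The fibroblast sums ran from 115431 to 191438 in HEM and from 189052 to 292749 in WT. No marker of either list was at 0 in any library. The part of these cells in the difference of Thy1 was not tested. Whether any reads from the transgene were counted in Thy1 was not tested either.

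Over the 19 libraries the log2 level of Thy1 was correlated with the mean level of the 189 other neuron genes (Pearson r = 0.661, permutation p = 0.00187, adjusted over 3 relations 0.00561; Spearman rho = 0.686, permutation p = 0.00143, adjusted 0.00429). Without the 2 libraries farthest from the median of neuron genes, HEM replicate 1 at 13 months and HEM replicate 3 at 3 months, r was 0.615 (permutation p = 0.00953, adjusted 0.0286). Within the 8 HEM libraries at 13 months r was 0.595 (exact permutation p = 0.114, adjusted 0.128). The other groups are too small for a value of their own. Permutations over more than 1 group exchanged libraries across genotype and age. Their p-values therefore mix differences between groups with variation between mice. For T cell markers r was 0.544 (permutation p = 0.0157, adjusted 0.0235) and rho 0.402 (permutation p = 0.0907, adjusted 0.136). Without the 2 libraries farthest from their median, HEM replicate 3 and WT replicate 6 at 13 months, that r was 0.364 (permutation p = 0.15, adjusted 0.187), and the relation with T cell markers no longer passed the test without those libraries. Within the 8 HEM libraries it was 0.586 (exact permutation p = 0.128, adjusted 0.128). For fibroblast markers r was -0.177 and rho -0.151 (permutation p = 0.468 and 0.538, and the same adjusted values), r was -0.337 without WT replicate 3 and HEM replicate 4 of 3 months, and it was -0.689 within HEM at 13 months (exact permutation p = 0.0516, adjusted 0.128).

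The 5 genes whose log2 level was most like that of Thy1 over the 19 libraries were Xcl1 (r = 0.911), a chemokine gene of T and natural killer cells, Tmem158 (0.852), the neuropeptide genes Cck (0.85) and Sst (0.845), and Tsen15 (0.841), which encodes a subunit of the tRNA splicing endonuclease. Among the members the highest values were 0.811 for Syn2, 0.807 for Stmn2 and 0.806 for Syn1, and the lowest were -0.461 for Gria1 and -0.296 for Nefh. These values share libraries and depth and are given as a description.

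Between HEM and WT at 13 months 0 of the 33 members passed the test, against a background of 12.2% of all genes tested at this age (limma-trend, adjusted p under 0.05). At an unadjusted p under 0.05 there were 2 members, Thy1 higher (background 11.6%) and Nefh lower (background 13.3%), where the background in either direction was 24.9%. edgeR called 0 members, against 12.1% of all genes, and DESeq2 called 1, Thy1, against 16.6%. The members' median log2 difference was 0.04, beside 0.03 over all genes tested, and 21 were higher and 12 lower in HEM by sign alone. The median carries no direction: with 1 library left out it ran from -0.21 to 0.32, and it was below 0 without HEM replicate 1 (-0.19), HEM replicate 3 (-0.01), WT replicate 8 (-0.08) or WT replicate 9 (-0.21) of this age. Leaving out 3 libraries together, HEM replicates 1 and 11 of 13 months and HEM replicate 3 of 3 months, a set carried over from earlier work on these data, gave a median of -0.18, and 1 member passed: Dlg4, which encodes the postsynaptic scaffold PSD-95, with -0.51 and limma-trend adjusted p = 0.0259. In that fit limma called 2465 of all 23973 genes tested. Dlg4 was also called with the other neuron genes in the model, with -0.42 and limma-trend adjusted p = 0.0334. There limma called 3232 of all 23973 genes tested. Nothing is read from a count of 1 member in either fit.

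Markers of other cell types moved between HEM and WT at 13 months, where 4.87% of all genes tested were called higher and 7.3% lower. Of 12 neutrophil markers 11 were called higher in HEM and 0 lower, and all 12 were higher by sign. Their median was 1.96, with sums from 71567 to 612933 normalized counts in HEM and from 44608 to 118896 in WT. Of 9 erythroid markers 4 were called higher and 0 lower, and all 9 were higher by sign. Their median was 1.04, with sums from 441872 to 1499059 in HEM and from 287293 to 703342 in WT. All 10 choroid plexus markers were lower, with a median of -0.94 and sums from 1998728 to 3795615 in HEM and from 4846198 to 5792980 in WT. No marker of these lists was at 0 in any library. At 3 months 0 markers of these lists passed, with medians of -0.63, -0.48 and 0.16 in the same order. Their part in the members' values was not tested.

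Between HEM and WT at 3 months 0 of the 33 members passed the test either, against a background of 0% of all genes tested. At an unadjusted p under 0.05 there were 8 members, 7 higher (Thy1, Syn1, Syn2, Grin1, Gad1, Gad2 and Penk, background 1.84%) and 1 lower (Gria1, background 2.02%), where the background in either direction was 3.85%. edgeR and DESeq2 called 0 members, against 0% and 0.025% of all genes. By sign 32 of 33 were higher in HEM, with a median log2 difference of 0.97, beside 0.01 over all genes tested, of which 12343 of 23973 were higher. The members move together from library to library, so these 32 signs are not 32 separate observations. With the level of the 189 other neuron genes in the model the median was 0.11. Without the same 3 libraries the median was 0.66, and with 1 library left out it ran from 0.66 without HEM replicate 3 to 1.28 without WT replicate 1 of this age. The groups did not overlap for 7 members, Thy1, Syn2, Vamp2, Gria2, Grin1, Slc17a7 and Gad2, all with every HEM library above every WT library, where the background was 3.08% of all genes tested, and 0 with every HEM library below, where it was 2.78%. At 13 months 0 members separated HEM from WT, where 2.69% of all genes tested lay above and 3.98% below in every HEM library.

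**Figure D4:**
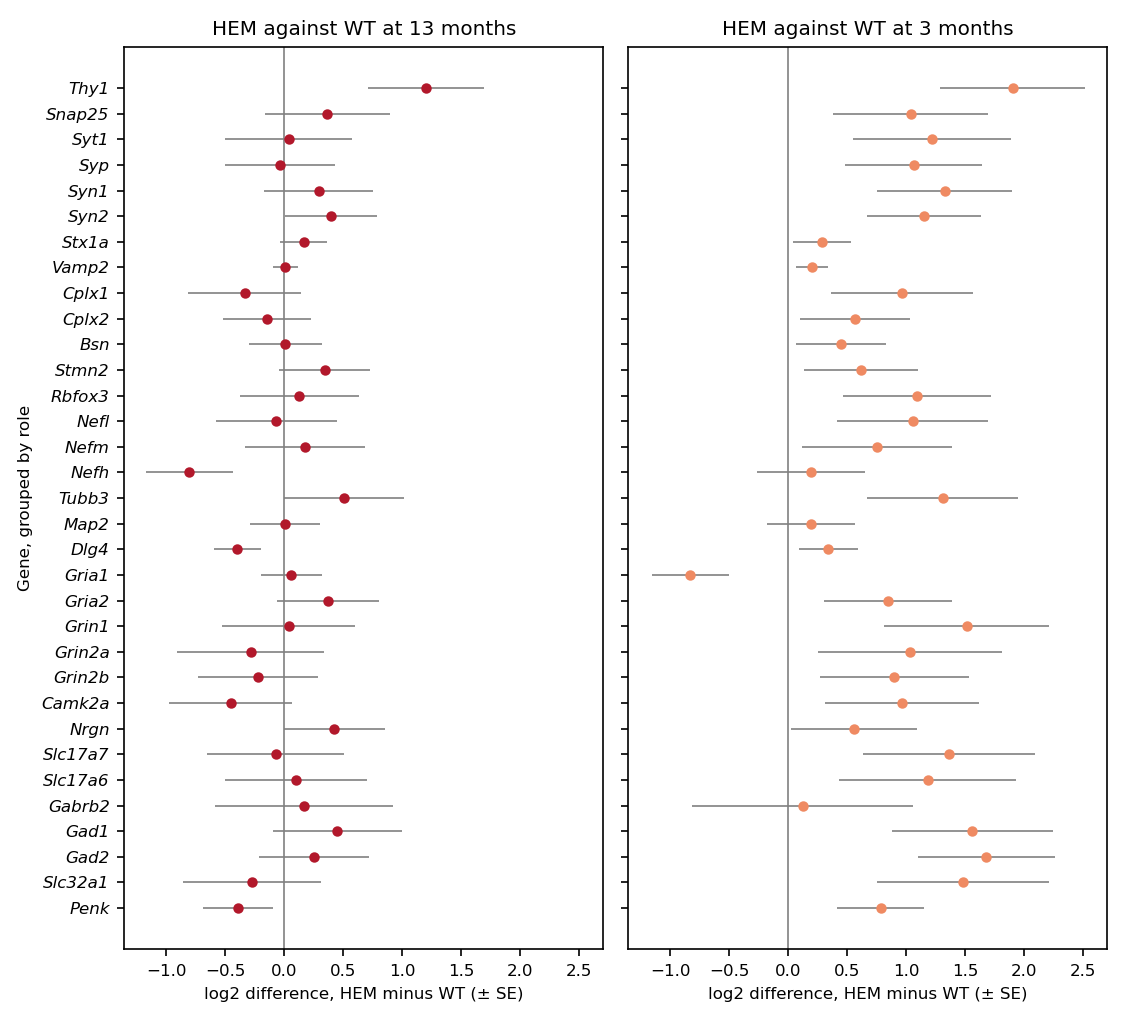
Log2 difference of each member, HEM minus WT, at 13 months (left) and 3 months (right), with lines of 1 SE on each side from the limma fit. At 13 months the points lie on both sides of 0 with a median of 0.04, and at 3 months 32 of 33 lie above 0 while Gria1 lies at -0.83.

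Between 13 and 3 months 1 member passed the test in HEM, Penk, which was lower (background 0.684% lower and 1.62% in either direction of all genes tested), and 0 passed in WT, against 0.709%. At an unadjusted p under 0.05 there were 10 members in HEM, 1 higher (background 8.9%) and 9 lower (background 7.68%), where the background in either direction was 16.6%. In WT there was 1, Nefh, which was higher (background 9.18%, and 15.5% in either direction). edgeR called Penk in HEM, against 1.55% of all genes, and 0 members in WT, against 0.43%; DESeq2 called Penk and Gria1 in HEM, against 5.43%, and 0 in WT, against 5.08%. No member separated the ages in every library, where 1.44% of all genes tested lay above and 1.36% below at 13 months in HEM, and 8.83% above and 6.46% below in WT. The median log2 difference, 13 minus 3 months, was -0.77 in HEM and 0.11 in WT, beside -0.00 and -0.01 over all genes tested. In HEM it ran from -1.07 without replicate 1 of 13 months to -0.50 without replicate 3 of 3 months. In WT it ran from -0.15 without replicate 7 of 13 months to 0.44 without replicate 1 of 3 months, and was -0.03 without replicate 5 of 3 months, so it carries no direction. With the replicate number as a block the medians were -0.06 in HEM and 1.50 in WT, and with the other neuron genes in the model they were -0.08 and -0.01. The difference of the genotype effects at the 2 ages passed for 0 members, against a background of 0%, with 3 members at an unadjusted p under 0.05, Gria1 higher (background 6.77%) and Penk and Dlg4 lower (background 8.04%), where the background in either direction was 14.8%. edgeR called 0 members, against 0% of all genes, and DESeq2 called 0, against 3.91%. The members' median there was -0.97, or from -1.33 without WT replicate 1 to -0.65 without HEM replicate 3, both of 3 months. The comparisons within HEM and between genotypes share the HEM libraries, so their medians are not separate evidence.

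Markers of other cell types differed between the ages as well. Of all genes tested 0.934% were called higher and 0.684% lower at 13 months in HEM, and 0.709% in either direction in WT. Of 12 endothelial markers 2 were lower at 13 months in HEM and 0 passed in WT, with all 12 lower by sign in both and medians of -0.95 in HEM and -1.0 in WT. Neutrophil markers had medians of 1.56 in HEM and -1.10 in WT, with 0 of 12 passing in either. Of 10 choroid plexus markers 1 was called lower in HEM and 0 passed in WT, with medians of -0.54 and 0.58. Endothelial markers summed to 109107 to 375640 normalized counts at 13 months and to 297940 to 614324 at 3 months in HEM, and to 122237 to 331761 and 348652 to 449744 in WT. At 3 months the neutrophil sums ran from 52881 to 165793 in HEM and from 83448 to 214378 in WT, and the choroid plexus sums from 3153666 to 5661004 in HEM and from 2856890 to 4932673 in WT. Their part in the members' differences between ages was not tested.

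The vesicle genes of the list form the release machinery. Snap25, Stx1a and Vamp2 encode the SNARE proteins, Syt1 the calcium sensor synaptotagmin, Cplx1 and Cplx2 the complexins that clamp the SNARE complex, Syn1 and Syn2 the synapsins that tether vesicles, Syp the vesicle protein synaptophysin, and Bsn the active zone scaffold bassoon. None of the 10 passed the test between genotypes at either age or between ages. At 13 months the 10 log2 differences ran from -0.33 to 0.40 with a median of 0.03, and at 3 months from 0.20 to 1.33 with a median of 1.0.

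Among the vesicle genes, Vamp2 (ENSMUSG00000020894, mm10 chromosome 11, 69088490 to 69092384) was the highest per length and the steadiest. Its normalized count ran from 11336 to 17909 in HEM at 13 months, with a median of 14968, and from 13178 to 16613 in the 4 WT libraries. At 3 months it was 14425, 18480.4, 14383 and 15732 in HEM, against 14042, 14069.8 and 12778 in WT. The HEM libraries of 3 months lay above the WT libraries by a small step, with a log2 difference of 0.20 ± 0.13 (limma-trend adjusted p = 1.0). The SNARE partner Snap25 varied much more, 13.7-fold between its highest and lowest library against 1.63-fold for Vamp2. Snap25 had a median of 4924 and a range of 1661 to 22781 in HEM at 13 months, against 4209, 9334, 3553 and 2161 in WT.

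Syn2 (ENSMUSG00000009394, mm10 chromosome 6, 115134902 to 115282006) had 2912, 5996, 3329 and 2913 normalized counts in HEM at 3 months, against 2830.2, 1376 and 1098 in WT. The groups did not overlap, and WT replicate 1 lay just below the lowest HEM library. The log2 difference was 1.15 ± 0.49 (limma-trend adjusted p = 1.0). At 13 months Syn2 ran from 1111 to 6167 in HEM with a median of 1666, and was 1509, 2436, 1406 and 1024 in WT. The difference of 0.40 ± 0.39 was about the size of its error.

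The windows before the gene start are shown for a pair of vesicle genes that varied differently, Syn1, with an SD within groups of 0.828 on the log2 scale, and Stx1a, with 0.344. They come from RefSeq (GRCm38.p6) and run 5′ to 3′ on the strand of the gene, Syn1 at chrX:20921005-20921168 (minus strand) and Stx1a at chr5:135023232-135023481 (plus strand). The Syn1 window leaves out the 86 bases next to the RefSeq start that GENCODE places inside the gene. Capitals mark matches of the letters TTCAGCACC, the start of the RE1 element bound by the neuronal gene repressor REST, and TGACGTCA, the cAMP response element, both searched on either strand.
Syn1: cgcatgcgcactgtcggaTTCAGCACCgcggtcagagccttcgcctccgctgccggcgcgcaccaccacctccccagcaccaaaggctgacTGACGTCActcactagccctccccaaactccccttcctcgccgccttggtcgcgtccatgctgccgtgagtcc
Stx1a: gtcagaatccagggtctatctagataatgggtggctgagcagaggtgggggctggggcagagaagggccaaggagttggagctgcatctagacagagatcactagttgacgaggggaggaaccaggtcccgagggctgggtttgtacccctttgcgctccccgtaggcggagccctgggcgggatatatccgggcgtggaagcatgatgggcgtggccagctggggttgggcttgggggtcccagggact
The first motif starts 232 bases and the second 159 bases before the RefSeq start of Syn1, and neither set of letters is in the Stx1a window. RefSeq windows were matched for 21 members, 28 windows in all, and Syn1 had the 1 match of each motif. Of 32851 windows of 250 bases, 0.301% held the first set of letters and 1.55% the second. The full 250 bases hold 27 CG dinucleotides for Syn1 and 9 for Stx1a, where the median of all windows is 6. A match of letters is a description of the window and not a site in use.

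The neuron identity and cytoskeleton genes comprised Rbfox3, which encodes the neuronal nuclear antigen NeuN, Tubb3, Map2 and Stmn2, which encode a neuronal tubulin, a dendritic microtubule protein and a microtubule regulator of growing axons, and Nefl, Nefm and Nefh, the light, medium and heavy neurofilament subunits. None of the 7 passed the test between genotypes or ages. Their log2 differences, HEM minus WT, ran from -0.80 to 0.51 at 13 months and from 0.19 to 1.31 at 3 months.

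Tubb3 (ENSMUSG00000062380, mm10 chromosome 8, 123411424 to 123422015), the highest of this role per length, had 560.5 to 6697 normalized counts in HEM at 13 months with a median of 1743, against 1107, 2771, 1098 and 657 in WT. The groups overlapped, and the log2 difference of 0.51 ± 0.51 was within its error. At 3 months Tubb3 had 3457, 5253, 3096 and 2494 in HEM, against 2969, 1151 and 779 in WT. WT replicate 1 lay among the HEM libraries, and the difference was 1.31 ± 0.64 (limma-trend adjusted p = 1.0).

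Nefh (ENSMUSG00000020396, mm10 chromosome 11, 4938754 to 4948064) had the lowest log2 difference of the members, HEM minus WT at 13 months. In each group it was highest in the same library as most members. At 13 months it ran from 872 to 3573 normalized counts in HEM with a median of 1234, and was 1375, 3435, 3321 and 3103 in WT. HEM replicate 1 lay above every WT library, HEM replicates 11 and 13 lay between the lowest WT library and the next, and the other 5 lay below all 4. WT replicate 6 lay far below the rest of its group. The log2 difference was -0.80 ± 0.37 (limma-trend adjusted p = 0.18). At 3 months Nefh had 1477, 1752, 1258 and 1577 in HEM, against 2322, 776 and 1269 in WT, and the difference between ages in WT was 1.0 ± 0.46 (limma-trend adjusted p = 0.298). Nefl and Nefm lie next to each other on chromosome 14 on opposite strands, and 32.8% of the exon bases of Nefl and 19.2% of those of Nefm overlap. The strand setting of the counting is not given in the sources used here, so reads from the overlap cannot be assigned to either gene.

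The postsynaptic genes of glutamate synapses comprised the AMPA receptor subunits Gria1 and Gria2, the NMDA receptor subunits Grin1, Grin2a and Grin2b, the scaffold gene Dlg4, the kinase gene Camk2a, and Nrgn. None of the 8 passed the test in any comparison. At 3 months 7 of them were higher in HEM by sign and Gria1 was lower.

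Gria1 (ENSMUSG00000020524, mm10 chromosome 11, 57011387 to 57330244) was the 1 member with a negative difference at 3 months. At 3 months it had 2978, 5435, 4198 and 6306 normalized counts in HEM, against 4451, 12469 and 9483 in WT. WT replicate 1 lay among the HEM libraries while the other WT libraries lay above them, and the log2 difference was -0.83 ± 0.32 (limma-trend adjusted p = 1.0). At 13 months Gria1 ran from 6250.4 to 12544 in HEM with a median of 9154, and was 8603, 7043, 11058 and 8686 in WT. The groups overlapped fully, with a difference of 0.06 ± 0.26.

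Within HEM, Gria1 was higher at 13 than at 3 months in 7 of 8 libraries when set against the highest of 3 months, and the log2 difference was 1.0 ± 0.26 (limma-trend adjusted p = 0.0548). DESeq2 called it, with 0.998 and adjusted p = 0.0074. Leaving out HEM replicate 3 or 11 of 13 months, or WT replicate 1 or 3 of 3 months, also brought limma under the threshold, with adjusted p from 0.0293 to 0.0473, and over the 19 fits with a library left out the adjusted p reached 0.202. Astrocyte markers moved beside it. In HEM 5 of 12 were called higher at 13 months (background 0.934% of all genes tested), led by Slc1a2, the glial glutamate transporter. None of the 12 was called lower, and 10 were higher by sign. Their median was 0.57, with summed levels from 353216 to 693912 at 13 months and from 257093 to 354117 at 3 months. None of the 12 was at 0 in any library. In WT the age difference of Gria1 was 0.11 ± 0.32 (limma-trend adjusted p = 0.911). Of the 12 astrocyte markers 1, Aldh1l1, was higher in WT at 13 months (background 0.463%), and 10 were higher by sign. Their median in WT was 0.46, and the sums ran from 493516 to 605850 at 13 months and from 315725 to 427829 at 3 months. The difference between the age effects of HEM and WT in Gria1 was 0.89 ± 0.41 and did not pass (limma-trend adjusted p = 0.324). The part of astrocytes in the difference of Gria1 was not tested.

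Gria2 (ENSMUSG00000033981, mm10 chromosome 3, 80681450 to 80802835) had 5866, 6926, 4169 and 6399 normalized counts in HEM at 3 months, against 3579, 3807 and 2380.2 in WT. Every HEM library was above every WT library, with a log2 difference of 0.85 ± 0.54 (limma-trend adjusted p = 1.0). At 13 months Gria2 ran from 2799 to 21692 in HEM with a median of 4485, and was 8065, 4339.65, 3129.79 and 1899 in WT.

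Grin1 (ENSMUSG00000026959, mm10 chromosome 2, 25291181 to 25319187) encodes the NMDA receptor subunit shared by all such receptors. It had 2451, 6659.87, 1396 and 2453 normalized counts in HEM at 3 months, against 1384, 849 and 743 in WT. The lowest HEM library lay just above the highest WT library, and the log2 difference was 1.52 ± 0.70 (limma-trend adjusted p = 1.0). At 13 months Grin1 ran from 445 to 5048.5 in HEM with a median of 856, and was 1402, 1945, 657 and 479 in WT. The difference between ages in HEM was -1.47 ± 0.56 (limma-trend adjusted p = 0.19), or -0.68 and adjusted p = 0.0252 with the other neuron genes in the model. An antisense gene, Grin1os, overlaps 13.5% of its exon bases.

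Camk2a (ENSMUSG00000024617, mm10 chromosome 18, 60925618 to 60988152), the alpha subunit of the kinase that carries synaptic plasticity, ran from 2701 to 21816 normalized counts in HEM at 13 months with a median of 3994, against 7757, 11684, 4238 and 5639.9 in WT. The median of HEM lay below the lowest WT library, yet HEM replicate 1 lay above all of them, and the log2 difference was -0.45 ± 0.52. At 3 months it had 5940.1, 29354, 4505 and 4679 in HEM, against 5535, 2857 and 4003 in WT.

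Nrgn (ENSMUSG00000053310, mm10 chromosome 9, 37544492 to 37552904) ran from 4324 to 24712 normalized counts in HEM at 13 months with a median of 9279.6, against 5335, 14433, 6269 and 4849 in WT. At 3 months it had 9608, 25482, 7117 and 7333 in HEM, against 9189, 5492 and 7479 in WT. The groups overlapped at both ages. The log2 differences were 0.43 ± 0.43 at 13 months and 0.56 ± 0.53 at 3 months.

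The vesicular glutamate transporters are Slc17a7, used mainly in cortex, hippocampus and cerebellum, and Slc17a6, used mainly in thalamus and brainstem. Neither passed the test. Slc17a7 (ENSMUSG00000070570, mm10 chromosome 7, 45163949 to 45176142) had 6685, 19216, 5984 and 6721 normalized counts in HEM at 3 months, against 5059, 2965 and 2398 in WT. Every HEM library was above every WT library, with a log2 difference of 1.36 ± 0.73 (limma-trend adjusted p = 1.0). At 13 months it ran from 944 to 12209 in HEM with a median of 2191, and was 3197, 6400.3, 2184 and 1466 in WT. The difference between ages in HEM was -1.65 ± 0.58 (limma-trend adjusted p = 0.16), or -0.84 and adjusted p = 0.0283 with the other neuron genes in the model.

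The GABA genes were Gad1 and Gad2, whose enzymes make GABA from glutamate, Slc32a1, the vesicular GABA transporter, and Gabrb2. None of the 4 passed the test between genotypes. Gad2 (ENSMUSG00000026787, mm10 chromosome 2, 22622205 to 22693874) had 564, 1134, 566 and 507 normalized counts in HEM at 3 months, against 373, 133 and 169.6 in WT. The groups did not overlap, and the log2 difference of 1.68 ± 0.58 was the largest after Thy1 (limma-trend adjusted p = 1.0). At 13 months Gad2 ran from 111 to 1019 in HEM with a median of 251, and was 232, 431, 165 and 143 in WT. In HEM the difference between ages was -1.31 ± 0.47 (limma-trend adjusted p = 0.16), and -1.59 with adjusted p = 0.042 without HEM replicate 1 of 13 months.

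Slc32a1 (ENSMUSG00000037771, mm10 chromosome 2, 158610767 to 158615748) had 694, 1851, 577 and 485 normalized counts in HEM at 3 months, against 564, 186 and 202 in WT. WT replicate 1 lay above the lowest HEM library, and the log2 difference was 1.48 ± 0.73 (limma-trend adjusted p = 1.0). At 13 months Slc32a1 ran from 96.3 to 1347 in HEM with a median of 209, and was 472, 608, 219.8 and 159 in WT. Its difference of genotype effects, 13 minus 3 months, was the lowest of the members, -1.75 ± 0.93 (limma-trend adjusted p = 0.405). Gm14205 overlaps 24.9% of its exon bases on the other strand.

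Gabrb2 (ENSMUSG00000007653, mm10 chromosome 11, 42419757 to 42629028) had the lowest level of the members. At 3 months it had 13.4, 119, 42.2 and 126 normalized counts in HEM, against 63.4, 55.9 and 35.04 in WT. HEM held both the highest and the lowest library, so the difference of 0.12 ± 0.94 carries no direction. At 13 months Gabrb2 ran from 9.75 to 183 in HEM with a median of 23.1, and was 54.6, 70.9, 13.6 and 8.09 in WT.

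Penk (ENSMUSG00000045573, mm10 chromosome 4, 4133531 to 4138819) encodes proenkephalin, the precursor of the opioid peptide enkephalin, which in brain is known above all from striatal neurons. It was the 1 member that passed limma's test between the ages in HEM. Its normalized count ran from 1876 to 6316 in HEM at 13 months, with a median of 3210.04, and was 9001, 17923, 10813 and 6232 in HEM at 3 months. The groups overlapped by replicate 1 of 13 months alone, which lay just above replicate 7 of 3 months. The log2 difference, 13 minus 3 months, was -1.71 ± 0.30 (limma-trend adjusted p = 0.0119). Penk was called in each of the 19 fits with a library left out, with adjusted p from 0.00548 to 0.0424, and was not called with the replicate number as a block, with -1.54 and limma-trend adjusted p = 0.101.

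In WT, Penk had 3131, 3950.5, 6132 and 3748 normalized counts at 13 months and 5007, 7619.99 and 5449 at 3 months, with a difference of -0.53 ± 0.37 (limma-trend adjusted p = 0.533). The difference between the age effects of HEM and WT, which is also that between the genotype effects, was -1.18 ± 0.47 and did not pass (limma-trend adjusted p = 0.241). With the other neuron genes in the model the age difference in HEM was -1.51 (limma-trend adjusted p = 0.0147). Of 12 other striatal neuron genes 0 passed the test in HEM, with a median of -0.68, 10 of 12 lower by sign, and sums from 26297 to 40216 normalized counts at 13 months and from 32190 to 41336 at 3 months. The part of striatal material in the difference of Penk was not tested. A830012C17Rik overlaps 14.3% of the exon bases of Penk on the other strand.

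**Figure D5:**
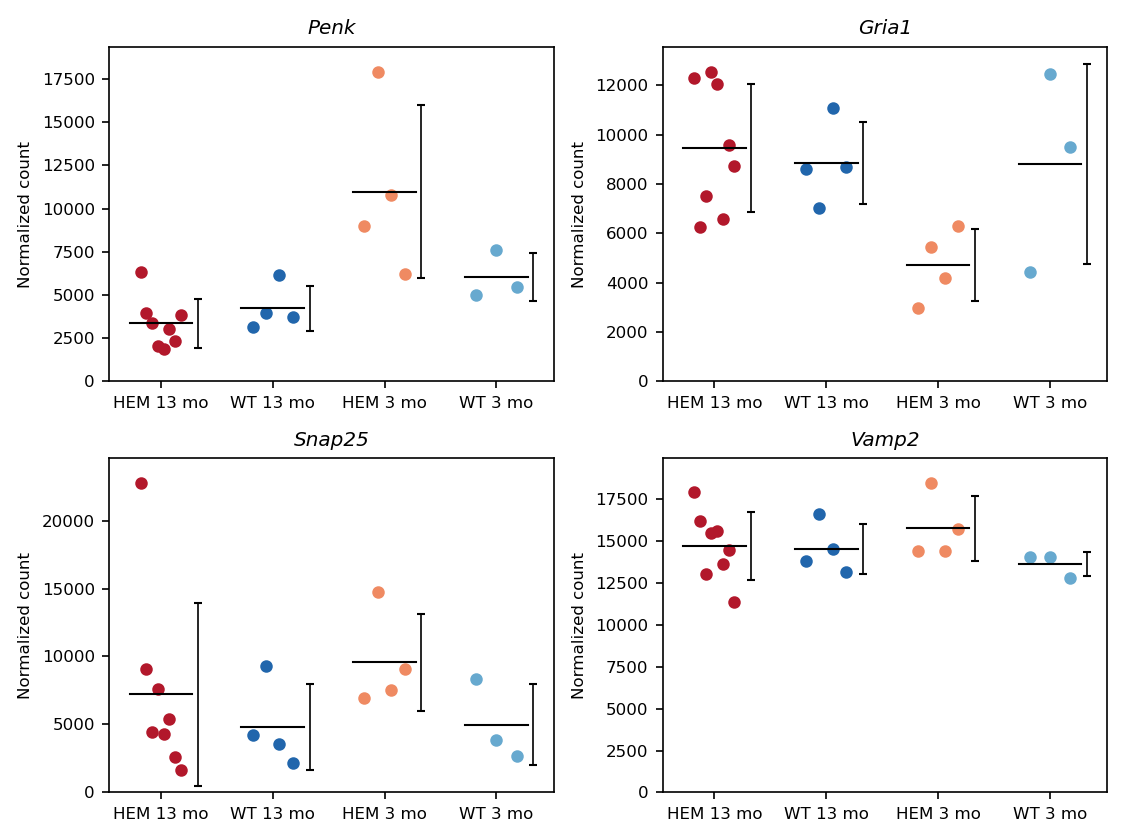
Normalized count of Penk, Gria1, Snap25 and Vamp2 in each library by group, with lines at the mean and bars of 1 SD on each side. Penk is highest in HEM at 3 months and Gria1 lowest there, Snap25 is spread widely within groups, and Vamp2 is close to level.

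Neuron genes outside the list were also examined. Of 189 such genes 1 was called higher and 9 were called lower in HEM at 13 months. By sign 115 were higher and 74 lower, with a median of 0.10. The called genes are 5.29% of the list, against 12.2% of all genes tested. Those called lower are 4.76%, against 7.3%, so the share called is below the background. None passed at 3 months, against 0%, with 165 of 189 higher by sign and a median of 0.58. Between the ages in HEM 2 were called higher and 3 lower. By sign 43 were higher and 146 lower, with a median of -0.51. The called genes are 2.65% of the list, against 1.62% of all genes tested, and nothing is read from a share that rests on 5 genes. In WT 0 passed, against 0.709%, with a median of 0.07. The genes called lower in HEM at 13 months included the presynaptic coat gene Snap91 (-0.90 ± 0.20, limma-trend adjusted p = 0.00622), the scaffold gene Dlg3 (-0.54 ± 0.11, adjusted p = 0.00453), the adhesion gene Cntnap2 (-0.90 ± 0.18, adjusted p = 0.00416) and the striatal phosphatase regulator Ppp1r1b (-1.10 ± 0.20, adjusted p = 0.00243). The cortical transcription factor gene Cux2 fell as well (-0.63 ± 0.13, adjusted p = 0.00482). Bcl11b, a transcription factor gene of cortical and striatal neurons and of T cells, was the 1 called higher (1.18 ± 0.37, limma-trend adjusted p = 0.0444). Between the ages in HEM, the GABA-A receptor subunit gene Gabrb1 (0.83 ± 0.17, limma-trend adjusted p = 0.0195) was higher at 13 months, and Cntnap2 (-0.74 ± 0.18, adjusted p = 0.0467) and Wfs1 (-0.51 ± 0.10, adjusted p = 0.0202) were lower. Of 32 transmitter and neuropeptide genes 0 passed at 13 months, with a median of 0.36, and of 13 cerebellar neuron genes 0 passed, with a median of 0.22.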

How the data were processed

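Per the labels' protocols, RNA came from frozen lysates (AllPrep) and was turned into libraries with a NEBNext Ultra II kit. The submitters' processing notes name Trimmomatic, HISAT2, featureCounts, DESeq2 and the build mm10; versions and strand setting are not given in the sources used here. The deposited unit is a signal: the values of each library are whole read counts over a constant, as the values themselves show, since 100% came out whole at a tolerance of 0.01, and the constants equal DESeq2's size factors to a relative difference of 2.37e-11. Reads recovered this way give the depth.

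Symbols came from GENCODE M21 for 99.5% of identifiers. Of all genes, 23973 reached 10 in 3 or more libraries. They were fitted by limma-trend with robust moderation (R 4.3.3 and limma 3.58.1), after adding 1 and taking log2, with the 4 groups in 1 model and Benjamini-Hochberg adjustment over all of them. Calls are at adjusted p under 0.05, and the added 1 understates differences of low genes. Alternatives were edgeR 4.0.16 with TMM or RLE factors and DESeq2 1.42.0 on the recovered reads, other filters, pseudocounts and scaling, the 2 groups alone, a covariate of 189 other neuron genes, the number in the title as a block, and libraries left out. Correlations used 100000 permutations, or all of them with 8 libraries, two-sided.

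Every member is named; full values go to Thy1, the highest per length of each role, called members or the 2 extremes at each end, members whose groups did not overlap, and from other lists the called gene with the smallest p, except 1 that is not reported here. Snap25, Dlg4, Stx1a, Syn1 and Gria1 with age in HEM were singled out after their values were seen. Members and lists were chosen with earlier results of these data known. The design text counts as many mice as there are libraries, so p-values of the group comparisons rest on the spread between these mice. The 3 libraries left out together were named in earlier work on these data; HEM replicate 11 does not stand apart on the first 2 principal components here.

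On simulated counts for 23497 genes, limma called 41.8% of genes changed 1.5-fold, 64.2% at 2-fold and 89.4% at 4-fold for HEM against WT at 13 months, with 14 false calls. For 3 months, on 23494 genes, it called 8.96%, 52.2% and 90.9%, with 5 false calls. Each share rests on 66 or 67 changed genes. They were chosen only among genes above a floor of mean level, so the shares do not cover genes of low level. Each gene was drawn independently with its own dispersion, so the simulated libraries share no variation among genes. The members move together and vary more within groups, with a median SD of 0.869 against 0.403 over all genes tested. These shares therefore do not hold for the members.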

Additional observations from a re-analysis of the deposited data

Results flagged for a closer look

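Each of 99 groups of 4 or 8 libraries, 33 members in the 3 groups large enough, was examined for a library far from the others on the log2 scale. In 17 the highest or lowest library stood apart from its neighbour by more than Dixon's critical value, where chance flags about 1 in 20 groups. The members share their libraries, so these are not separate observations: 9 of the 17 came from HEM replicate 1 at 13 months, 7 from HEM replicate 3 at 3 months and 1 from WT replicate 6 at 13 months.

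HEM replicate 1 at 13 months was the highest of its group for Stx1a with 3397 normalized counts, Cplx2 with 23584, Nefl with 5719.56, Nefm with 9383, Map2 with 12667, Dlg4 with 10462, Gria2 with 21692, Grin2b with 3957 and Camk2a with 21816. HEM replicate 3 at 3 months was the highest of its group for Bsn with 3892 normalized counts, Stmn2 with 4542, Rbfox3 with 8098, Nefl with 3842, Camk2a with 29354, Slc17a7 with 19216 and Gad2 with 1134. WT replicate 6 at 13 months was the lowest of its group for Nefh, with 1375 normalized counts, while it was not the lowest of the group for Nefl, with 1484, or Nefm, with 2131. The causes were not tested.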

How the results depend on the processing

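Of 419 values under alternatives other than leaving out 1 library, 392 kept their direction and side of the threshold or moved by less than the spread, as did 644 of 665 with a library left out. The members called between HEM and WT at 13 months numbered 0, and 1 with DESeq2 (Thy1), with other neuron genes in the model (Dlg4) and without 3 libraries together (Dlg4). Of all 23973 genes tested, these fits called 2918, 3980, 3232 and 2465 in the same order. Between the ages in HEM there was 1 member, or 2 with DESeq2 and with a filter at 50 (Gria1 and Penk). There were 3 with other neuron genes in the model (Grin1, Slc17a7 and Penk), 0 with the replicate block, and 1 to 3 over the 19 fits with a library left out. Over all genes tested the same fits called 388, 1302 with DESeq2 and 494 of 18431 with a filter at 50. They called 464 with other neuron genes in the model, 1 with the replicate block, and 62 to 648 with a library left out. Thy1 at 13 months was 1.44 with DESeq2, and its age difference in HEM ran from -1.73 to -1.09 with a library left out. The relation of Thy1 was 0.595 with other neuron genes and 0.586 with T cell markers within HEM at 13 months, and 0.364 with T cell markers without the 2 farthest libraries.

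Replicate numbers of the titles were treated as not pairing the mice, since whether same-numbered mice share a litter or day is not given in the sources used here: over 11 same-numbered pairs the correlation of deviations ran from -0.068 to 0.173, with 4 over 0.1. With the replicate block, which leaves 5 residual degrees of freedom, limma called 0 genes at 13 months and 1 between the ages in HEM, and Penk had adjusted p = 0.101; the members' median between ages in WT moved to 1.495, Thy1 between ages in WT turned to 0.296, Tubb3 at 13 months to -0.157, and Gabrb2 to 0.203 between ages in WT and -0.063 for the difference of genotype effects. Gabrb2, the lowest member, also turned to -1.06 at 3 months with other neuron genes in the model and to -0.247 without the 3 libraries, and for the difference of genotype effects to -0.168 and -0.174 with edgeR (TMM and RLE), -0.183 with DESeq2 and -0.064 with a pseudocount of 10. With a library left out Gabrb2 ran from -0.272 to 0.774 at 3 months and from -0.604 to 0.517 for the difference of genotype effects. Over all genes limma called 2918 at 13 months, 0 at 3 months, 388 between ages in HEM, 170 in WT and 0 for the difference of genotype effects. DESeq2 called 3980, 6, 1302, 1219 and 938 in the same order, and the replicate block left 0 in WT. In WT, edgeR called 103 (TMM) and 93 (RLE), and limma 79 without the low filter, 292 with a filter at 50, 77 with the 2 groups alone and 256 without 3 libraries together; in HEM the last 2 gave 231 and 203, and the last gave 1 for the difference. With a library left out the counts ran from 1707 to 3287 at 13 months, 62 to 648 in HEM, 0 to 523 in WT and 0 to 313 for the difference. A fit of the 2 groups alone could not be made for the difference. The causes were not tested.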
